A study of Mus musculus with 7 samples.

Results

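The SLAM receptors are a family of 9 immune cell surface proteins encoded on mouse chromosome 1: Slamf7, Slamf9, Slamf8, Cd84, Cd48, Ly9, Slamf1, Slamf6 and Cd244a. Their transcripts were measured in microglia, the resident macrophages of the brain, sorted from 5xFAD mice, which carry transgenes that cause amyloid plaques as in Alzheimer's disease. Each of the 9 genes had 1 row on the array, out of 19505 genes with a named row. Slamf7 was chosen by its difference between the genotypes compared here, in which it was 1 of 5 genes called (limma adjusted p = 0.0320). That difference is therefore given as a description and supports nothing further. The other 8 genes were taken for their family name, with earlier results of these data known.

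The samples formed 2 groups, with 1 array per sample. The first held 4 samples of genotype 5xFAD;B2m–/–, in which B2m was knocked out. The second held 3 samples of genotype 5xFAD;B2m+/+, in which B2m was intact. Both groups carried the 5xFAD transgenes on the C57BL/6 strain, and no sample here came from a mouse without them. B2m encodes beta-2-microglobulin, the partner that carries MHC class I molecules to the cell surface, and mice without it have few CD8+ T cells. Age, sex, litter and any pooling of animals are not in the labels. Nothing in them ties each array to an animal of its own, and a p-value here reflects only how far these samples spread, which may be technical. Cells were gated as live, CD45+ and CD11b+, a gate that can also admit other myeloid cells and some natural killer cells.

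Most SLAM receptors bind the same receptor on a neighbouring cell, and Cd48 instead serves as the ligand of Cd244a. The tails of most, but not all, members recruit small adapters of the SAP family, which link them to kinases. Where the adapters are absent, the same tails can recruit phosphatases and inhibit the cell. In macrophages, members of the family have been tied to phagocytosis, bacterial killing and cytokine release. Slamf7, also called CRACC or CS1, is best known on natural killer cells and plasma cells, and its human counterpart is the target of the myeloma antibody elotuzumab.

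The promoter sequences of Slamf7 and Slamf9 are shown, the 2 of 9 members whose genotype groups did not overlap. Both were higher in the knockout arrays without overlap, as were 7.10% of the 10004 tested genes, and Slamf7 was chosen for its value. Each run holds the 250 bases before the gene's start, 5′ to 3′ on the gene's own strand, from RefSeq on build GRCm38.p6. The Slamf7 window is chr1:171649000-171649249 on the minus strand and the Slamf9 window is chr1:172475110-172475359 on the plus strand. Capitals mark matches to the searched motifs.
Slamf7: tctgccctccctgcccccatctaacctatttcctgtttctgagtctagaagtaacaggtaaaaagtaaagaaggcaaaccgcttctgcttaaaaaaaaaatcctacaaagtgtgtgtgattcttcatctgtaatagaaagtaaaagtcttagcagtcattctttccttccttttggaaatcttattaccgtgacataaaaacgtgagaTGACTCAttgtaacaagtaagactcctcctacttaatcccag
Slamf9: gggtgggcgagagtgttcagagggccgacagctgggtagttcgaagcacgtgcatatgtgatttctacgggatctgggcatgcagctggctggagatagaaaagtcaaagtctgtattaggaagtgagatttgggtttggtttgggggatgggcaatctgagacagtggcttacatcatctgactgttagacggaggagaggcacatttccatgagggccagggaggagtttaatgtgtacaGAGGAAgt

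The motifs were the PU.1 core GAGGAA, the AP-1 site TGANTCA, the gamma-activated site TTCNNNGAA, the interferon-stimulated response element and the NF-kappa-B site, each searched on both strands, with no motif overlapping another in these 2 windows. PU.1 is the lineage factor of macrophages. The capitals in Slamf7 are an AP-1 match beginning 42 bases before the start, and those in Slamf9 are a PU.1 core beginning 8 bases before it. Of the 8 members with a RefSeq promoter entry, 3 held the AP-1 letters (Slamf7, Cd84 and Cd244a), 1 the PU.1 core (Slamf9) 1 the interferon element (Slamf8), and none the gamma-activated or NF-kappa-B site. Among all 32851 promoter windows of the same length, 6.75% held the AP-1 letters, 23.3% the PU.1 core, 2.98% the interferon element, 7.02% the gamma-activated site and 0.356% the NF-kappa-B site. A match in these letters describes the window and does not show that a factor binds there.

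B2m was 2.99 log2 units lower in the 4 knockout than in the 3 wildtype arrays (SE 0.10), with no overlap between the groups. All 9 microglial markers with a named row, among them P2ry12, Tmem119, Cx3cr1 and Siglech, lay above a background line on every array. The line is the level that 95% of 5222 rows do not reach, 9.35 to 9.55 depending on the array. These rows have neg in their identifier and are read here as negative controls. The line lay above the median of named genes on every array (7.92 to 7.99), so a gene under it is not shown to be absent. The mean over the microglial markers was 12.15 to 12.30 in knockout arrays and 12.21 to 12.29 in wildtype arrays. Neutrophil and monocyte markers varied among the knockout arrays and were highest in knockout replicate 4.

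Slamf7 (Entrez Gene 75345) was higher in the knockout arrays. Its log2 expression was 9.13, 8.85, 8.86 and 8.44 in the 4 knockout arrays, against 7.62, 7.47 and 7.82 in the 3 wildtype arrays. Every knockout array lay above every wildtype array, and the gap of the lowest knockout to the highest wildtype array was narrower than the range of the knockout arrays themselves. The means were 8.82 ± 0.28 (SD, n = 4) in knockout and 7.63 ± 0.18 (SD, n = 3) in wildtype arrays, a difference of 1.19 (SE 0.16, 95% confidence interval 0.84 to 1.53). In sorted bulk cells, a change in the share of cells that carry a transcript and a change in the amount per cell cannot be told apart.

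The Slamf7 signal was dim. It stayed under the background line on all 7 arrays. Knockout values exceeded 86.2% to 93.7% of the negative control rows and wildtype values 72.6% to 79.7%, so no fold is given. A gene was tested only if it exceeded the array's median over named genes (7.92 to 7.99) on at least 3 arrays. Slamf7 did so on 4 of 4 knockout and 0 of 3 wildtype arrays, so it entered the test only through the group in which it was higher. The other 8 members exceeded this median on all 7 arrays. The Slamf7 call was lost without any 1 of knockout replicates 1, 2 and 3 or wildtype replicates 1 and 2 (difference 1.08 to 1.18), and kept without knockout replicate 4 or wildtype replicate 3. It was also lost, at the same difference, when B2m and its neighbours were left out of the fit (limma adjusted p = 0.158), and a stricter filter on dim genes removed Slamf7 from the test.

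**Figure D1:**
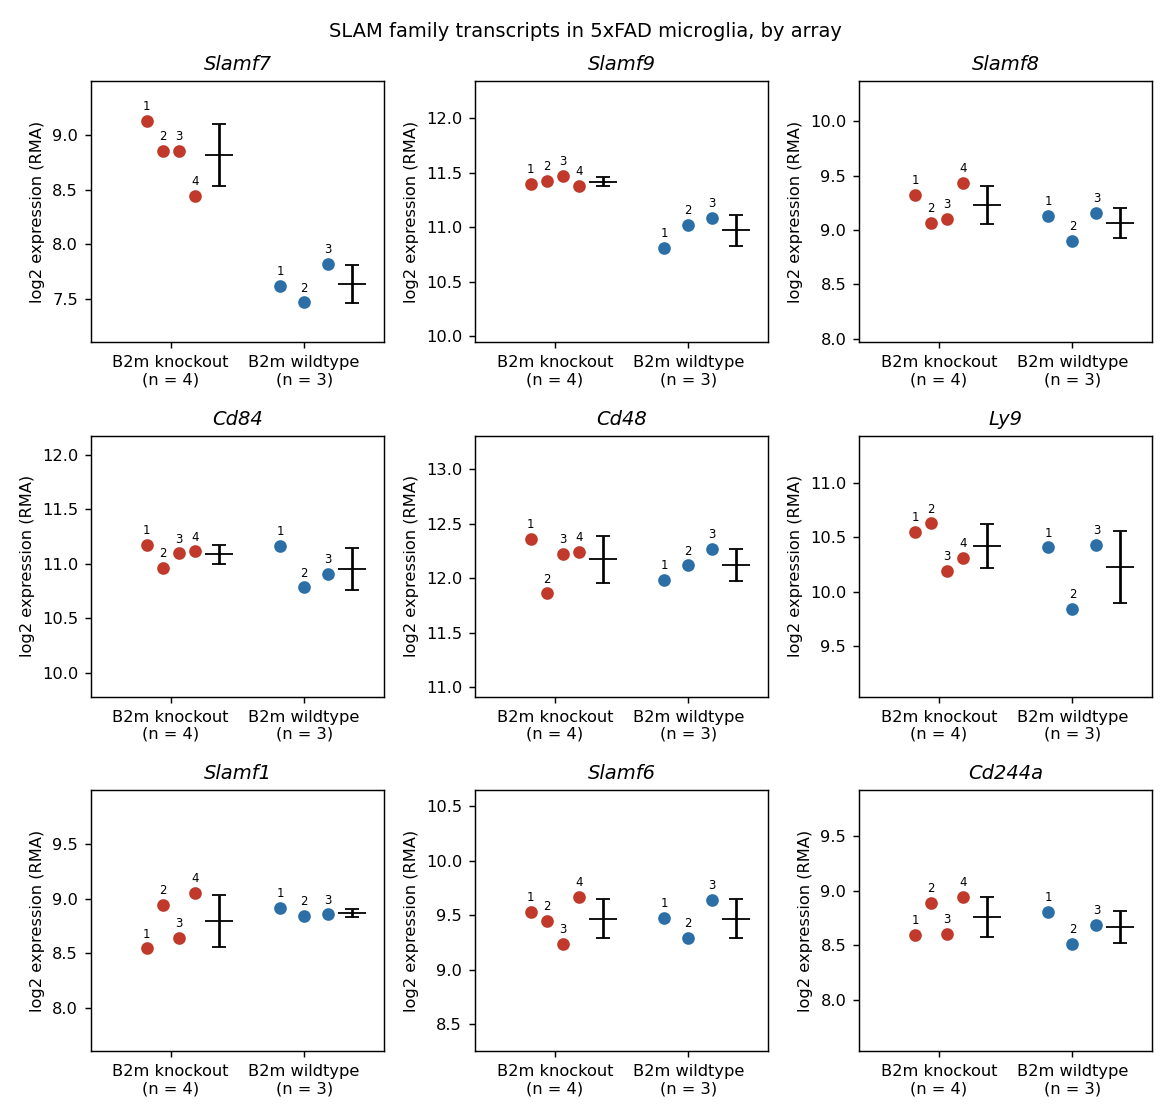
Log2 expression of the 9 SLAM family transcripts (vertical axis, the same span in every panel) in 4 B2m knockout arrays (red, left) and 3 B2m wildtype arrays (blue, right), with replicate numbers above the points and the mean ± SD beside them. Knockout values lie above all wildtype values for Slamf7 (8.44 to 9.13 against 7.47 to 7.82) and Slamf9 (11.38 to 11.47 against 10.81 to 11.08), and the groups overlap in the other 7 panels.

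Of the 8 members taken for their family name, Slamf9 differed most. Slamf9 (Entrez Gene 98365) encodes a short-tailed member of the family described on macrophages and dendritic cells. It measured 11.40, 11.43, 11.47 and 11.38 in the knockout arrays, against 10.81, 11.02 and 11.08 in the wildtype arrays. The 4 knockout values lay closer together than the 3 wildtype values, and all were above them. The difference was 0.45 (SE 0.10), 1.36-fold with a 95% confidence interval of 1.17 to 1.59, and it did not pass correction over the 10004 tested genes (limma adjusted p = 0.286). By unadjusted p it ranked 41 of 10004. Unlike Slamf7, it was bright, above 98.8% to 99.2% of the negative control rows.

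Slamf8, the other short-tailed macrophage member, which in mice has been tied to restraint of the NADPH oxidase, did not separate the genotypes. It measured 9.32, 9.06, 9.10 and 9.43 in knockout arrays, against 9.13, 8.90 and 9.15 in wildtype arrays. The difference was 0.17 (95% confidence interval -0.11 to 0.44, limma adjusted p = 0.615). Knockout replicates 2 and 3 lay between the wildtype values, and all 7 values were under the background line.

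The self-binding receptors Cd84 and Ly9 and the ligand Cd48 were bright in both genotypes. Cd84, found on many leukocytes, ranged from 10.96 to 11.17 in knockout and from 10.78 to 11.17 in wildtype arrays, a difference of 0.13 (95% confidence interval -0.12 to 0.39, limma adjusted p = 0.677). Ly9, also called CD229, ranged from 10.19 to 10.63 in knockout and from 9.84 to 10.43 in wildtype arrays, a difference of 0.19 (95% confidence interval -0.17 to 0.56, limma adjusted p = 0.676). Wildtype replicate 2 was the lowest array for both genes. Cd48, a lipid-anchored protein with no signalling tail of its own, ranged from 11.86 to 12.36 in knockout and from 11.98 to 12.27 in wildtype arrays. Its difference was 0.050 (95% confidence interval -0.25 to 0.35, limma adjusted p = 0.914).

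Slamf1, Slamf6 and Cd244a are best known on lymphocytes, although Slamf1 also acts in mouse macrophages as a sensor of bacteria. Slamf1 measured 8.54, 8.94, 8.64 and 9.05 in knockout arrays, against 8.91, 8.84 and 8.86 in wildtype arrays. The knockout arrays spread to both sides of the wildtype arrays, with replicates 1 and 3 below and 2 and 4 above. The difference was -0.075 (95% confidence interval -0.37 to 0.22, limma adjusted p = 0.862). Slamf6 ranged from 9.23 to 9.67 in knockout and from 9.29 to 9.64 in wildtype arrays, with a 95% confidence interval of the difference of -0.29 to 0.29, and did not pass the test. The sign of the Slamf1, Slamf6 and Cd48 differences turned when single arrays were left out. Cd244a, the receptor for Cd48, ranged from 8.59 to 8.94 in knockout and from 8.51 to 8.81 in wildtype arrays, a difference of 0.090 (95% confidence interval -0.19 to 0.37, limma adjusted p = 0.816). Slamf1 and Cd244a were under the background line on all 7 arrays, and Slamf6 was above it on 4 of 7.

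**Figure D2:**
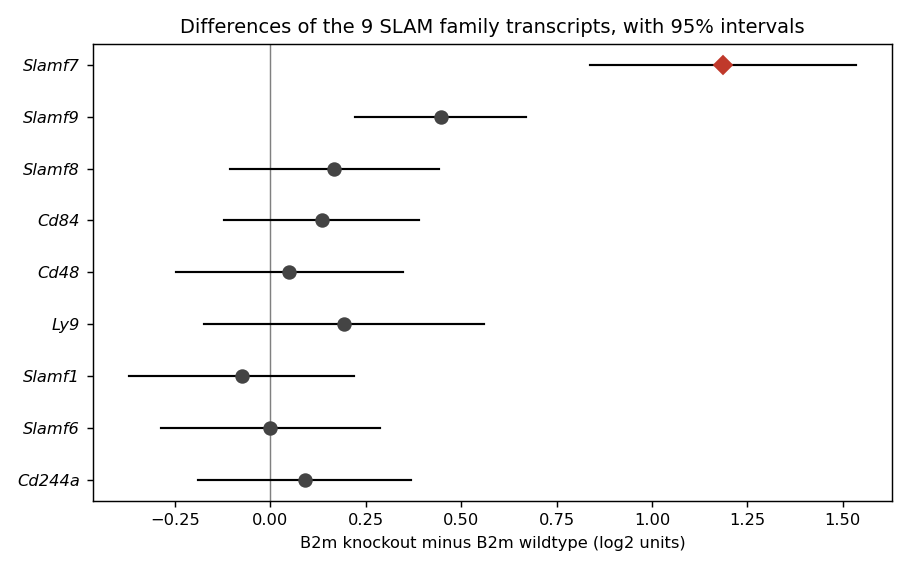
Difference in log2 expression, B2m knockout minus B2m wildtype (horizontal axis, log2 units), for each SLAM family transcript, with the 95% confidence interval from limma as a line (4 knockout and 3 wildtype arrays). The red diamond is Slamf7, chosen for its difference of 1.19, Slamf9 stands at 0.45, and the intervals of the other 7 members include 0.

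Across the family, 1 of 9 members was called higher at an adjusted p under 0.05 and 0 lower. That member was Slamf7 itself, and 0.0200% of all tested genes were called higher, with 5 of 10004 called in either direction. In a fit without the filter on dim genes, 0.0256% of 19505 genes were called in either direction and 0.0103% higher. At an unadjusted p under 0.05, 2 of 9 were higher and 0 lower, against 8.39% of tested genes higher and 3.54% lower. The groups did not overlap for 2 of 9 members, both higher in knockout arrays, against 7.10% of tested genes. The median difference was 0.13 over the 9 members and -0.0055 over all tested genes, and 8 of 9 members lay above 0, against 48.6% of tested genes. Among the 8, Slamf6 stood at 0.00034 and Cd48 at 0.050, and both signs turned when single arrays were left out. Since Slamf7 was chosen for its value, 1 of each of these counts was fixed in advance.

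All 9 genes lie on chromosome 1. In the order of named genes, Cd244a, Ly9, Slamf7, Cd48, Slamf1, Cd84 and Slamf6 were 7 consecutive genes, and Slamf9 and Slamf8 followed after 13 and then 4 other genes. The neighbours on both sides of Slamf7, Ly9 at 0.19 (SE 0.17) and Cd48 at 0.050 (SE 0.13), did not pass the test. Of the 17 other named genes between Cd244a and Slamf8, 11 were tested and 0 were called in limma, against 5 of 10004 tested genes. Of these 11, Igsf8 alone reached an unadjusted p under 0.05, on the higher side, as did 8.39% of all tested genes. The differences of the 11 ran from -0.27 to 0.24. Among the genes next to a SLAM gene (values from the fit without the filter), Vangl2, a planar polarity protein, beside Slamf6, differed by 0.040 (SE 0.21). Beside Slamf9, the adhesion protein Igsf9 differed by -0.27 (SE 0.13), with a limma adjusted p of 0.449 in the filtered fit. Vsig8, next to Slamf8, differed by -0.029 (SE 0.12). The other neighbours failed the filter: Itln1 before Cd244a differed by -0.12 (SE 0.12), Pigm before Slamf9 by 0.0045 (SE 0.11) and Fcrl6 after Slamf8 by -0.27 (SE 0.13).

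**Figure D3:**
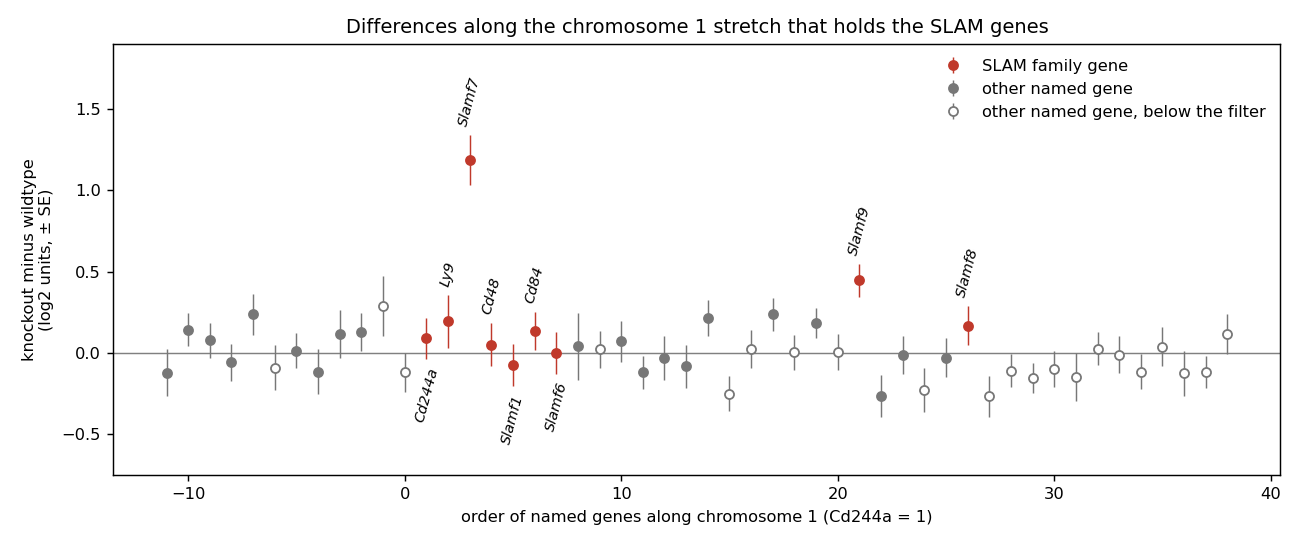
Difference in log2 expression, B2m knockout minus B2m wildtype, with its standard error (vertical axis), for named genes in their order along chromosome 1, counted from Cd244a as 1 (horizontal axis), from 12 genes before it to 12 after Slamf8. SLAM family genes are red, other genes grey, and open circles are genes below the filter on dim genes. Slamf7 at 1.19 and Slamf9 at 0.45 stand above the 41 other named genes shown.

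The adapters that decide whether most SLAM receptors activate or inhibit were near background. All 3 (Sh2d1a, which encodes SAP, Sh2d1b1, which encodes EAT-2, and Sh2d1b2, which encodes the rodent protein ERT) failed the filter and were under the background line on all 7 arrays. Their differences come from a fit without the filter, over 19505 genes. Sh2d1b1 measured 7.54, 7.95, 6.84 and 7.87 in knockout arrays, against 7.06, 6.96 and 6.88 in wildtype arrays. Knockout replicate 3 lay below all wildtype arrays and the other 3 knockout arrays above them, and the difference was 0.58 (SE 0.22, limma adjusted p = 0.498). Sh2d1b2 ranged from 7.29 to 7.39 in knockout and from 6.98 to 7.19 in wildtype arrays, without overlap, a difference of 0.22 (SE 0.097, limma adjusted p = 0.540). Sh2d1a differed by 0.054 (SE 0.13, limma adjusted p = 0.934). Sh2d1b1 and Sh2d1b2 were higher at an unadjusted p under 0.05, as were 5.11% of all genes in that fit, with 3.99% lower.

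Enzymes and adapters that act below SLAM receptors did not pass the test. Of 21 listed, 18 had a named row and were tested, 0 were called in limma, and the median difference was 0.034. An unadjusted p under 0.05 was reached by 1 of 18 on the higher and 1 of 18 on the lower side, against 8.39% and 3.54% of all tested genes. The higher one was Fgr, a Src family kinase, at 8.27, 8.94, 8.89 and 8.85 in knockout arrays, against 8.16, 8.28 and 8.08 in wildtype arrays. Knockout replicate 1 lay among the wildtype arrays, and the difference was 0.57 (SE 0.16, limma adjusted p = 0.315). The lower one was phospholipase C gamma 1, Plcg1, at 9.27 to 9.39 in knockout and 9.50 to 9.68 in wildtype arrays, a difference of -0.25 (SE 0.096, limma adjusted p = 0.372). The inhibitory phosphatases Inpp5d (SHIP-1) and Ptpn6 (SHP-1), both bright on all 7 arrays, differed by -0.11 (SE 0.10) and 0.23 (SE 0.12), and the kinase Fyn, the main partner of SAP, by -0.094 (SE 0.13). None of the 3 passed, with limma adjusted p from 0.477 to 0.819.

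In mouse macrophages, SLAMF7 takes part in phagocytosis together with the integrin Mac-1 and its signalling chains. All 8 listed genes of that set were tested, 0 were called in limma and 0 reached an unadjusted p under 0.05, around a median of 0.030. Over all tested genes, 5 of 10004 were called, and 8.39% were higher and 3.54% lower at that unadjusted threshold. The Mac-1 subunits Itgam and Itgb2 differed by -0.15 (SE 0.11) and 0.048 (SE 0.11), and the signalling chains Tyrobp and Fcer1g by 0.19 (SE 0.11) and 0.12 (SE 0.11). Cd47, the ligand of the phagocytosis inhibitor Sirpa, differed by 0.23 (SE 0.11, limma adjusted p = 0.452). The 5 NADPH oxidase genes with a row, the enzyme that Slamf1 and Slamf8 have been tied to, had a median of 0.13. None was called or reached an unadjusted p under 0.05 in limma, and Ncf4 at 0.25 (SE 0.14) and Cyba at 0.19 (SE 0.13) had the smallest p. Against the shares over all tested genes, counts of 0 in lists of 8 and 5 genes do not show that these genes were unchanged.

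Cytokines that human macrophages release on SLAMF7 engagement were also measured. Of 11 listed, 9 were tested and 0 were called in limma, around a median of 0.12. The 1 of 9 that reached an unadjusted p under 0.05 (8.39% of all tested genes on the higher side) was the chemokine Cxcl2, at 9.81, 9.91, 9.45 and 9.91 in knockout arrays, against 9.25, 9.49 and 9.54 in wildtype arrays, a difference of 0.35 (SE 0.14, limma adjusted p = 0.381). Tnf and Il1b, both bright, differed by 0.12 (SE 0.14) and 0.14 (SE 0.15). Cd2, the other receptor for Cd48, lay between 6.30 and 6.62 and under the background line on all 7 arrays.

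Cells that carry Slamf7 outside the microglial lineage were looked for by their markers. None of the 9 natural killer cell markers, 7 CD8 T cell markers, 8 T cell markers or 5 B cell markers with a named row was above the background line on any array. Slamf7 itself was under this line on all 7 arrays, so markers under it do not show that such cells were absent. The natural killer receptor Ncr1 was 7.08, 6.07, 6.33 and 6.13 in knockout arrays, against 6.25, 6.69 and 6.11 in wildtype arrays. The mean over the 9 natural killer markers was 7.20, 6.85, 6.96 and 6.75 in knockout arrays, against 6.89, 6.93 and 7.07 in wildtype arrays. The knockout arrays had the same order in this mean and in Slamf7, with replicate 1 highest and replicate 4 lowest. Knockout replicates 2 and 3 were nearly equal in Slamf7. Wildtype replicate 3 was the highest wildtype array in both. The groups overlapped in the natural killer mean and not in Slamf7. The part of natural killer cells in the Slamf7 difference was not tested. Of 8 plasma cell markers 1 (Xbp1) was above that line on all arrays, 1 (Prdm1) on 6 and 6 on none, and their mean was 8.25 to 8.36 in knockout and 8.17 to 8.37 in wildtype arrays. Of 10 dendritic cell markers 2 (Itgax and Tcf4) were above it on all arrays, Ccr7 on 6, Batf3 on 5 and 6 markers on none, with means of 8.12 to 8.25 in knockout and 8.15 to 8.28 in wildtype arrays. The defining markers Flt3, Xcr1 and Clec9a of dendritic cells and Jchain and Mzb1 of plasma cells were among those above it on none. Of 8 markers of border-associated macrophages, 2 (Mrc1 and Pf4) were above the background line on all arrays and 4 on none. Their mean was 8.83 to 8.98 in knockout and 8.70 to 9.16 in wildtype arrays. Array values on the log2 scale have no true 0.

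Monocyte and neutrophil markers were higher in some knockout arrays. The mean over 7 monocyte markers was 8.58, 8.91, 9.01 and 9.68 in knockout arrays, against 8.27, 8.73 and 8.32 in wildtype arrays, with 3 of 6 tested members higher at an unadjusted p under 0.05 and 0 called in limma. Over all tested genes 8.39% were higher at that threshold. The 3 were S100a4, which differed by 0.92 (SE 0.18, limma adjusted p = 0.232) without overlap, and Plac8 and Chil3, whose groups overlapped. Plac8 differed by 1.105 (SE 0.30, limma adjusted p = 0.315) and Chil3 by 1.17 (SE 0.47, limma adjusted p = 0.386). The mean over 7 neutrophil markers was 10.14, 10.82, 11.51 and 12.08 in knockout arrays, against 10.46, 10.98 and 10.22 in wildtype arrays. Knockout replicate 1, the highest array for Slamf7, was the lowest knockout array in both lists, and replicate 4, the lowest knockout array for Slamf7, was the highest in both. The mean over 10 endothelial markers was 9.53, 9.37, 9.47 and 9.36 in knockout arrays, against 10.03, 10.06 and 9.26 in wildtype arrays, with 4 of 10 lower at an unadjusted p under 0.05, against 3.54% of all tested genes, and 0 called in limma. Wildtype replicates 1 and 2 were high in it and wildtype replicate 3 the lowest of all 7. All 7 arrays were above the background line for 0 of 7 monocyte, 4 of 7 neutrophil and 4 of 10 endothelial markers, and no array was for 3, 0 and 4 of them, Ccr2 among the monocyte markers. The Slamf7 difference was 1.31 (SE 0.13) without knockout replicate 4, and 1.28 (SE 0.18) without wildtype replicate 3. The Slamf9 difference was 0.46 (SE 0.11) without knockout replicate 4 and 0.50 (SE 0.12) without wildtype replicate 3. These leave-outs do not even out the marker lists between the genotypes, and the part of these cells in either difference was not tested.

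**Figure D4:**
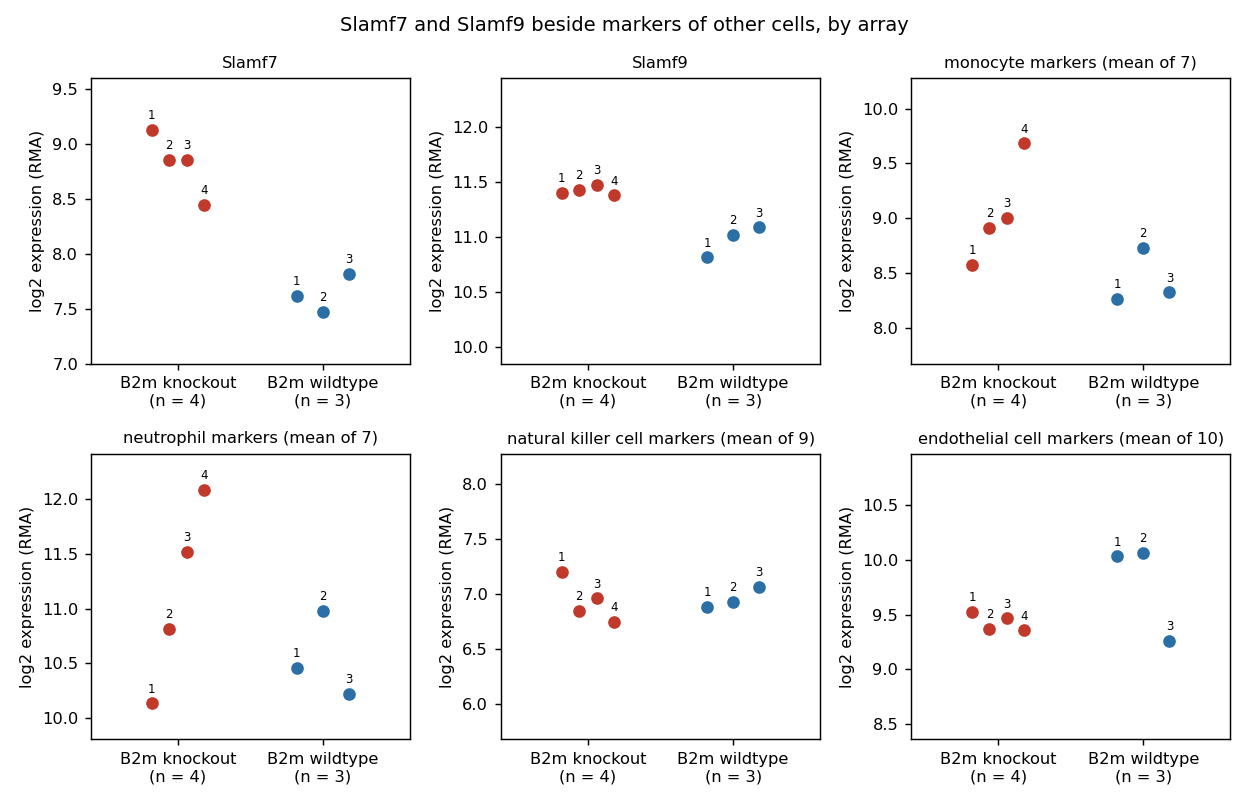
Log2 expression of Slamf7 and Slamf9 and the mean log2 expression of 4 marker lists (vertical axis, the same span in every panel) in 4 B2m knockout arrays (red, left) and 3 B2m wildtype arrays (blue, right), with replicate numbers above the points. Slamf7 is highest in knockout replicate 1 (9.13) and lowest among knockout arrays in replicate 4 (8.44), where the monocyte (9.68) and neutrophil (12.08) marker means are highest.

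Genes whose values ran most like Slamf7 were found by Pearson's r over the 7 arrays among 9625 tested protein-coding genes, as a description only, since 7 arrays in 2 groups leave many genes with a high r. The closest were Tmem179b (r = 0.992), the ribosomal protein paralogue Rpl22l1 (0.980), the respiratory complex I subunit Ndufa11 (0.969), the ribonuclease Rnaset2a (0.968) and Coa6 (0.964), an assembly factor of cytochrome oxidase. Of the family, Slamf9 came closest, at r = 0.912 and rank 71, and the other members ran from -0.458 for Slamf1 to 0.543 for Ly9. With each genotype's mean removed, the closest were Hs6st3 (r = 0.982), Abcb10 (0.977), Entpd2 (0.971), Lamtor1 (0.968) and Sprn (0.965), none of which was among the first set. By this measure Slamf9 had an r of 0.234 with Slamf7 and Ly9 one of 0.559.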

How the data were processed

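The deposited values are log2 expression, 1 table of 28846 probe set rows for 7 arrays. Per the submitters' processing notes, the tools were RMA and Affymetrix Expression Console 1.1. RMA adjusts background, normalizes across arrays and combines probes, and array medians lay at 7.68 to 7.75, so no further normalization was applied. The genome build of the array was not given in the sources used here. Rows with 1 gene in the platform annotation were matched by Entrez identifier to the RefSeq gene table, giving 19505 genes. The brightest probe set stood for each of 55 genes with several. A filter (above the array's median of named genes on at least 3 arrays) left 10004 genes.

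Groups follow the genotype labels. The 2 genotypes were compared with limma version 3.58.1 in R version 4.3.3 (lmFit, eBayes, Benjamini-Hochberg over all tested genes, threshold 0.05), a fit first tested on simulated data. The number of arrays limits the precision. Genes that fail the filter have values from a fit without it. Named genes are the 9 members, B2m, in each list the called genes and up to 4 with the smallest unadjusted p, the 5 most like Slamf7 by each measure (predicted genes, clones, pseudogenes and chemosensory receptors left out), and genes next to a SLAM gene. Marker genes and list genes named outside this rule were picked after their values were seen. The members and lists were chosen with earlier results of these data known, as were the motifs. Alternatives were other filters, variance priors, array weights, normalizations and probe set rules, a fit without B2m and its 50 tested neighbours on each side, and leaving out each array.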

Additional observations from a re-analysis of the deposited data

Results flagged for a closer look

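The knockout arrays of 90 genes were searched for 1 array far from the other 3 by Dixon's 95% value for the gap over the range. Chance alone marks about 1 in 20 groups at that level, and 3 were marked. Fgr was 8.27 in knockout replicate 1 and 8.85 to 8.94 in the others, a gap of 0.867 of the range. The plasma cell receptor Tnfrsf17, dim on all arrays, was 8.16 in knockout replicate 2 and 7.64 to 7.67 in the others (0.946). Batf3, a dendritic cell transcription factor, was 9.52 in knockout replicate 3 and 9.70 to 9.72 in the others (0.862). No SLAM family member was marked. Outside the 90, the list genes Klrd1 (0.882), Csf1r (0.855), Btk (0.851) and Becn1 (0.833) also passed that value.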

How the results depend on the processing

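Over the 15 alternatives that tested it, the Slamf7 difference lay between 1.08 and 1.31, with limma adjusted p from 0.0042 to 0.311. That of Slamf9 lay between 0.37 and 0.50 over 16, never past the threshold (limma adjusted p 0.114 to 0.689). The count of SLAM members called, 1 in the reported fit, was 0 under the stricter filter, where Slamf7, Slamf1 and Cd244a were not tested, and 0 to 1 with each array left out. Without B2m and its neighbours it was 0, and 0 genes in all were called in limma, while an unadjusted p under 0.05 was reached by 830 genes on the higher and 341 on the lower side. With each array left out, 4 to 26 genes were called, 26 of them without wildtype replicate 3. At an unadjusted p under 0.05, 1 SLAM member was left under the stricter filter. With arrays left out, differences ran from -0.021 to 0.15 for Cd48, -0.16 to 0.0090 for Slamf1 and -0.090 to 0.087 for Slamf6, whose difference was -0.047 with array weights and -0.027 with quantile normalization repeated. The unadjusted count on the lower side was 354 in the reported fit, 779 without a filter, 194 with the stricter filter, 533 with array weights and 205 with centred arrays. It was 624 without knockout replicate 4, 226 without wildtype replicate 1 and 224 without wildtype replicate 2, and the higher count was 474 without wildtype replicate 1, against 839. One endothelial marker was called without wildtype replicate 3. The stricter filter took Slamf7 out of the test, and the cause of the other shifts was not tested. No paired analysis was possible because replicate numbers follow accession order and pair no samples. Dim signal limits Slamf7, Slamf8, Slamf1 and Cd244a, which were under the background line on every array.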

Other observations

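The 3 Y-linked genes with a row, Kdm5d, Eif2s3y and Uty, were under the background line on every array, with means of 5.02 to 5.17 in knockout arrays and 5.15 to 5.24 in wildtype arrays.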
